A study of Mus musculus with 6 samples.

Results

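Wnt ligands, their receptors and the proteins that restrain or relay their signal were followed at the RNA level in MuSCs, the stem cells of skeletal muscle that lie between the myofiber and its basal lamina. The members were the protein-coding genes whose names mark them as Wnt, Frizzled, secreted frizzled-related or Dickkopf genes, together with 16 named co-receptors, inhibitors, transducers and nuclear factors. Of the 25166 genes in the table, 15330 were protein coding and 41 were members. These were 10 ligands, 10 Frizzled receptors, 7 co-receptors or other receptors, 8 secreted antagonists, 3 cytoplasmic transducers and 3 nuclear factors. *Lef1*, the remaining named factor, has no value here, and the non-coding RNA *Fzd10os* carries a matching name but is not protein coding.

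MuSCs of 3 Sirt6mKO and 3 control samples were sequenced, with 1 library per sample. In Sirt6mKO mice a constitutive Cre recombinase expressed from the *Pax7* locus removes exons 4 to 6 of floxed *Sirt6*, and since *Pax7* marks the muscle lineage from its progenitors onwards, the deletion is not limited to adult stem cells. The study describes the controls as Cre-negative littermates with the same floxed alleles, whereas the labels call them wild type. The mice were C57BL/6 males of 12 weeks, and each library came from 100 to 200 cells sorted as positive for Integrin α7 and CD34 and negative for Sca1, CD45 and CD31. The study analysed sorted cells again and reports that their purity was incomplete. That the replicates come from separate animals is not stated in the labels, so the p-values below measure the spread between these samples.

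Wnt proteins are lipid-modified ligands that reach their target cells over short distances. In the canonical branch a Wnt binds a Frizzled receptor together with LRP5 or LRP6, the destruction complex around AXIN stops marking β-catenin for degradation, and β-catenin then activates genes with TCF or LEF factors. In the branches that do not use β-catenin, Frizzled acts with ROR or RYK receptors or with the planar polarity proteins, which orient cells and their divisions. In skeletal muscle, quiescent MuSCs are known to produce WNT4, the WNT7A receptor FZD7 acts in their expansion, and β-catenin activity is kept low during quiescence.

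The promoters of 2 of the called members, *Wnt4* and *Ror2*, and of *Axin2*, the most widely used reporter gene of β-catenin activity, are shown so that the start of each gene can be read beside its RNA level. The data hold no chromatin measurement of them. Each runs 5′ to 3′ on the strand of the gene and ends at the base before the first annotated exon. The sequences were taken from the RefSeq windows of GRCm38.p6. Capitals mark the GC box (GGGCGG, or CCGCCC on the other strand) and, in *Ror2*, an AP-1 motif (TGANTCA, here TGAGTCA). The *Wnt4* stretch lies at chr4:137277385-137277488 on the plus strand, that of *Ror2* at chr13:53286125-53286374 on the minus strand and that of *Axin2* at chr11:108920099-108920348 on the plus strand.
Wnt4: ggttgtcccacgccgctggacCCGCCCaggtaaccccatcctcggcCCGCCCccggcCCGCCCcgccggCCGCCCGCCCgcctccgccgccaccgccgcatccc
Ror2: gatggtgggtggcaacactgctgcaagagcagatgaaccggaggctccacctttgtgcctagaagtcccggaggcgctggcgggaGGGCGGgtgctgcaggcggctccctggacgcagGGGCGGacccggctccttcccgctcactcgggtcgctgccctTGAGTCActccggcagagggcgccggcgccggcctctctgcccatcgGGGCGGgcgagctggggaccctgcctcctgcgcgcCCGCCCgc
Axin2: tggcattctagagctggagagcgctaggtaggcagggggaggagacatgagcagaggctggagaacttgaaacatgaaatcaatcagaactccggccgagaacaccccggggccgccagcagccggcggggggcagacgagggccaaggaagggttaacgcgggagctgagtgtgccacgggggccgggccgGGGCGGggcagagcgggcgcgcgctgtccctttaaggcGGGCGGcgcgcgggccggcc

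The *Wnt4* stretch of 104 bases held 5 GC boxes, of which 2 overlap each other, at a GC content of 83.7%. The *Ror2* stretch of 250 bases held 4 GC boxes and 1 AP-1 motif at 73.2% GC, and the *Axin2* stretch of the same length held 2 GC boxes and neither an AP-1 nor a TCF/LEF motif (CTTTGAT) on either strand at 69.2% GC. RefSeq windows were found for 28 of the 41 members, 33 windows in all. In the 250 bases before the start site, 26 of the 33 member windows (78.8%) contained a GC box on either strand, against 32.7% of all 32851 windows. The members' windows were also richer in GC, with a median of 66.8% against 52.4%, so the 2 values are not separate observations. An AP-1 motif occurred in 2 of the 33 windows (6.06%, those of *Ror2* and *Wnt5b*) against 6.75% of all windows, and the TCF/LEF motif in 1 (3.03%, *Wnt5b*) against 3.21%. The *Fzd8* promoter is not shown.

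The deposited values are whole numbers, called signal here. Each is the number of reads on a gene after division by a factor that is common to its library, rounded. Between 1267947 and 3211528 reads on genes lie behind a library, with the fewest in control replicate 3, in which a single read stands for a signal of 1.792. Total signal ran from 2272307 to 2369973. For *Sirt6* itself the control libraries gave 18, 17 and 20 and the libraries labelled Sirt6mKO 19, 20 and 13 (log2 fold change -0.10, limma-trend adjusted p = 0.91). The table has no value per exon, so that the deleted exons and thereby the labels cannot be checked on it. Values are given in the order of replicates 1, 2 and 3 throughout.

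Across the members, the RNAs of some receptors and of β-catenin were abundant in MuSCs, whereas those of all ligands and secreted antagonists were scarce, as were those of several Frizzled receptors, *Ror2*, *Lgr5*, *Axin2* and *Tcf7*. Per kilobase of annotated exon, the highest levels in the controls were those of *Ctnnb1* (212 ± 34.3, SD, n = 3), which encodes β-catenin, *Lrp6* (128 ± 1.38), *Fzd4* (109 ± 13.8) and *Ror1* (92.4 ± 13). *Ryk*, *Axin1* and *Lgr4* followed at 53 ± 2, 46.8 ± 5.8 and 42.6 ± 10.9, levels that lie within or close to each other's SD. The most abundant ligand, *Wnt4*, reached 5.72 ± 0.413 per kilobase in the controls, and *Sfrp5*, the most abundant secreted antagonist, 6.14 ± 3.38. Mean signal was at least 5 for 27 members, which could be tested, and lower for 14, of which 7 were ligands and 4 antagonists. Of these 14, 5 had no more than 3 reads in any library, the limit that a count of 0 allows (counting error only), namely *Wnt2*, *Wnt6*, *Wnt10a*, *Wnt10b* and *Wnt16*. The markers *Fzd4*, *Lrp6* and *Axin2* were present in every library.

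**Figure D1:**
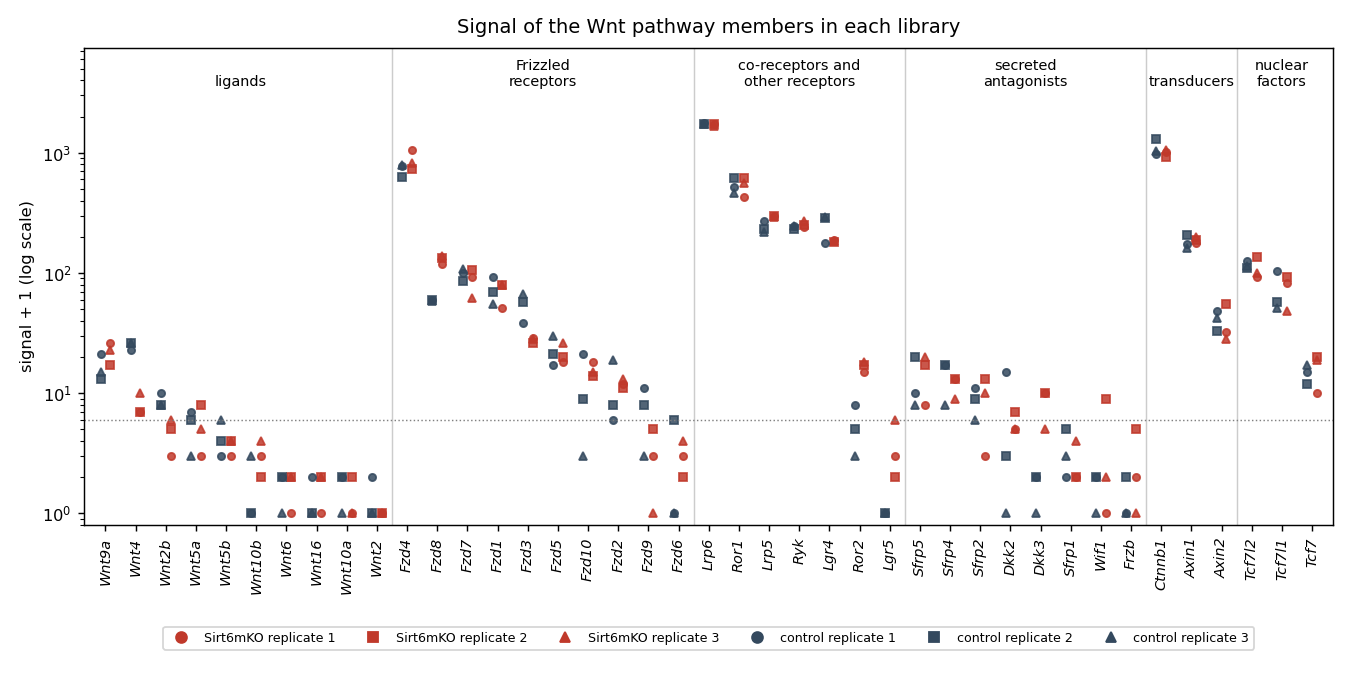
Signal plus 1 (log axis) of all 41 members in each of the 6 libraries, ordered by role and level; blue symbols are control and red symbols Sirt6mKO replicates, and the dotted line is the mean signal of 5 needed for testing. *Lrp6*, *Fzd4* and *Ctnnb1* reach signals above 1000 in at least 1 library, whereas no ligand exceeds 25 in any library.

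In Sirt6mKO the ligand *Wnt4* was at a lower level and the receptors *Fzd8* and *Ror2* were at higher levels, while the other 24 tested members were not called. As the study describes them, the groups differ in Cre as well as in *Sirt6*, and their parts cannot be told apart. Calls required a 2-fold change or more together with an adjusted p no higher than 0.05, from limma-trend on log2(signal + 1) with Benjamini-Hochberg adjustment over all 14227 tested genes. Of the 27 tested members 2 were higher in Sirt6mKO, where 1.57% of all tested genes were, and 1 was lower, where 1.02% of all were. At the adjusted p alone the same 3 members passed, against 4.52% of all genes. The libraries of the groups did not overlap for 6 of the 27 members, or 22.2%, and for 21.2% of all tested genes. The log2 fold change was above 0 for 14 members and below 0 for 13, with a median of 0.003 over the members and of 0.002 over all genes. Its size was under 0.5 for 20 members, and for 15 of the 27 the 95% interval stayed within 1 log2 unit of no change.

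**Figure D2:**
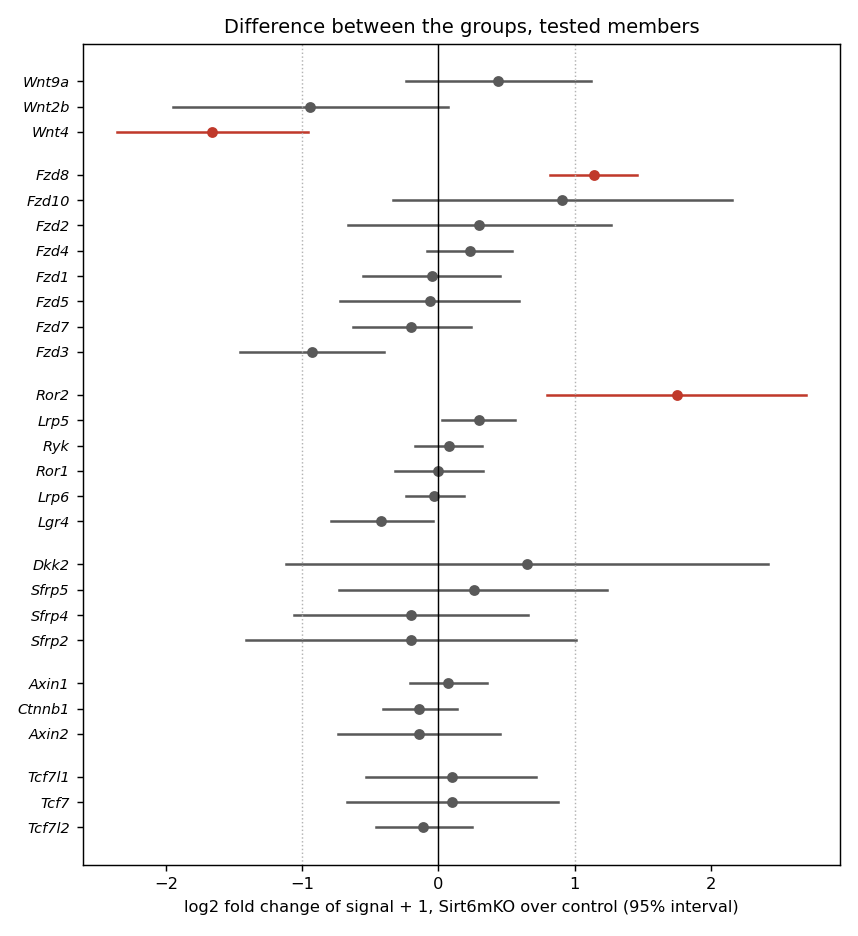
Log2 fold change of signal plus 1 in Sirt6mKO over control for the 27 tested members (points) with 95% intervals from limma-trend (bars), grouped by role; red marks an adjusted p of at most 0.05 and dotted lines a 2-fold change. *Wnt4* lies at -1.66, *Fzd8* at 1.14 and *Ror2* at 1.75, whereas most other members lie near 0.

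Among the ligands, *Wnt4* (ENSMUSG00000036856, chromosome 4 of GRCm38, 137277489 to 137299726) was the only one called. *Pax7*, from whose locus the Cre is expressed, lies on the same chromosome. A part of that allele in the *Wnt4* difference was not tested. WNT4 is a secreted ligand that signals mostly without β-catenin. Its signal was 22, 25 and 25 in the controls and 6, 6 and 9 in Sirt6mKO, so that every Sirt6mKO library lay far below every control library. The means were 24 ± 1.73 and 7 ± 1.73 (SD, n = 3), which is a 3.43-fold lower level in Sirt6mKO. The log2 fold change was -1.66 with a standard error of 0.32 (95% interval -2.36 to -0.96, limma-trend adjusted p = 0.012). Rebuilt from signal and size factor, these values rest on 66 reads in the 3 control libraries and 25 in the 3 Sirt6mKO libraries, a scaled ratio of 0.289 with an exact binomial 95% interval of 0.174 to 0.464 that covers counting error only. In bulk samples, fewer cells that express a gene and less of its RNA per cell cannot be told apart. The median log2 fold change of 12 MuSC markers was -0.11, but markers of this list passed the limma-trend adjusted p in both directions. *Pax7* was at -0.84 and *Chrdl2* at -1.10, while *Des* was at 0.59 and *Cd34* at 0.60. Without Sirt6mKO replicate 1, Sirt6mKO replicate 2 or control replicate 2 the log2 fold change was -1.58, -1.58 and -1.63 and the limma-trend adjusted p 0.060, 0.060 and 0.052.

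*Wnt9a*, which takes part in joint and haematopoietic development, was measured at 20, 12 and 14 in the controls and 25, 16 and 22 in Sirt6mKO. The groups overlapped, and the log2 fold change of 0.44 (interval -0.24 to 1.12) did not pass the test (adjusted p = 0.52, limma-trend). *Wnt2b*, a ligand of the canonical branch, had a signal of 9, 7 and 7 in the controls and of 2, 4 and 5 in Sirt6mKO. Its groups did not overlap, but its log2 fold change of -0.94 (interval -1.95 to 0.07) came with an adjusted p of 0.31. The other 7 ligands, *Wnt2*, *Wnt5a*, *Wnt5b*, *Wnt6*, *Wnt10a*, *Wnt10b* and *Wnt16*, had signals of 0 to 7 in every library and were not tested. *Wnt5a*, the classical partner of ROR2, was among them at 6, 5 and 2 in the controls and 2, 7 and 4 in Sirt6mKO.

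The make-up of the ligand RNA differed between the groups accordingly. Per kilobase, *Wnt4* made up 31.9, 43 and 40.9% of the summed signal of the 10 ligands in the controls and 13, 13.5 and 16.3% in Sirt6mKO. *Wnt9a* made up 36.5, 26 and 28.9% in the controls and 68.2, 45.3 and 50.2% in Sirt6mKO. The shares of a library depend on each other, so the higher share of *Wnt9a* is not an observation separate from the lower share of *Wnt4*. Neither share overlapped between the groups, and each exact two-sided permutation test gave p = 0.1, the smallest value that 3 libraries against 3 allow. The order of the most abundant ligands was therefore *Wnt4* before *Wnt9a* in control replicates 2 and 3, the reverse in control replicate 1, and *Wnt9a* before *Wnt4* in all 3 Sirt6mKO libraries. The summed ligand signal per kilobase was 16.5, 13.9 and 14.6 in the controls and 11, 10.6 and 13.2 in Sirt6mKO, without overlap (exact permutation p = 0.1). Its mean was 15 in the controls and 11.6 in Sirt6mKO, of which *Wnt4* gave 5.72 and 1.67. The lower sum is therefore not an observation separate from *Wnt4*.

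**Figure D3:**
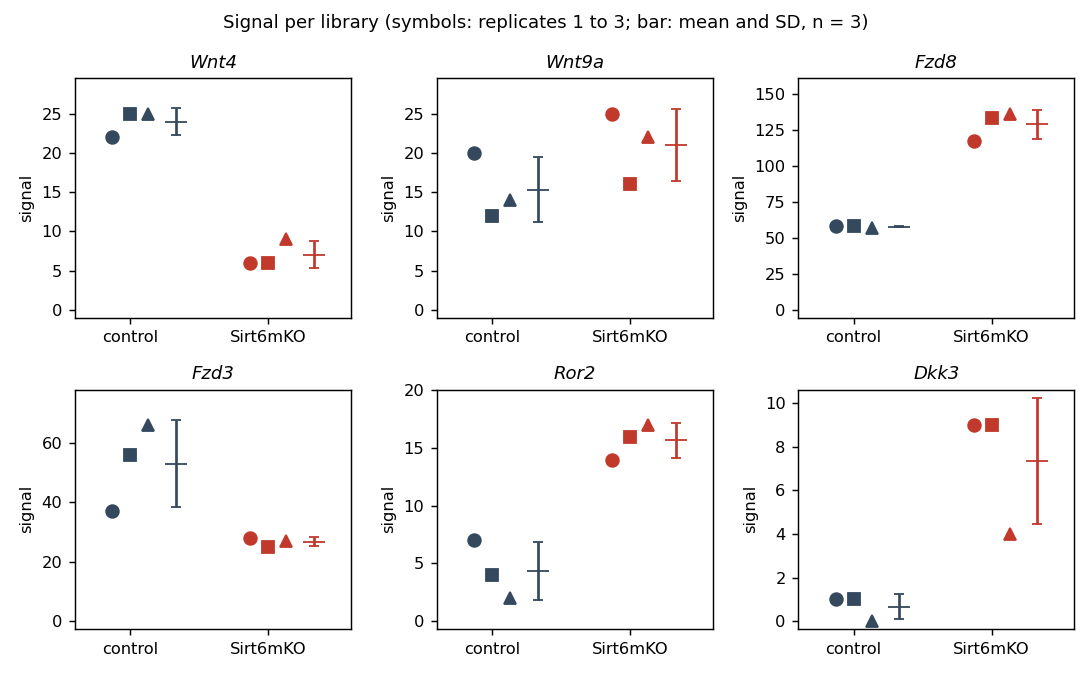
Signal per library of *Wnt4*, *Wnt9a*, *Fzd8*, *Fzd3*, *Ror2* and *Dkk3* in the control and Sirt6mKO groups; symbols are replicates 1 to 3, and horizontal marks with bars are the mean and SD (n = 3). *Wnt4* lies at 22 to 25 in the controls and at 6 to 9 in Sirt6mKO, *Fzd8* at 57 to 58 and at 117 to 136, and the groups overlap for *Wnt9a* alone of these 6.

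Of the 10 Frizzled receptors, the seven-pass membrane proteins that bind Wnt, *Fzd8* was higher in Sirt6mKO and none passed the test in the other direction. *Fzd8* (ENSMUSG00000036904, chromosome 18) had a signal of 58, 58 and 57 in the controls and of 117, 133 and 136 in Sirt6mKO. The control libraries were nearly equal and every Sirt6mKO library lay at least 59 above them. The means of 57.7 ± 0.58 and 129 ± 10.2 (SD, n = 3) differ 2.23-fold. On the log2 scale the change was 1.14 (standard error 0.15, interval 0.82 to 1.46, limma-trend adjusted p = 0.0011). It was the member with the smallest adjusted p, and the call held without each library in turn, with adjusted p from 0.0026 to 0.015 in limma-trend.

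*Fzd3*, a receptor best known for axon guidance and planar polarity, lay just outside the threshold in the other direction. Its signal was 37, 56 and 66 in the controls and 28, 25 and 27 in Sirt6mKO, without overlap but with a wide spread of the controls. The log2 fold change was -0.93 (standard error 0.24, interval -1.46 to -0.40) with a limma-trend adjusted p of 0.052. Without control replicate 1 it was -1.16 with an adjusted p of 0.016. That was the only 1 of the 6 fits without 1 library to pass. Over these fits the log2 fold change was as small as -0.75 and the limma-trend adjusted p as high as 0.18.

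The remaining Frizzled receptors that were tested did not pass. *Fzd4*, the receptor of norrin as well as of Wnt and by level the leading Frizzled of these cells, had a signal of 780, 628 and 796 in the controls and 1047, 733 and 823 in Sirt6mKO, with overlap and a log2 fold change of 0.23 (interval -0.08 to 0.54, adjusted p = 0.44 in limma-trend). *Fzd7*, which binds WNT7A in MuSCs, was at 98, 85 and 106 and at 92, 104 and 61, a log2 fold change of -0.20 (interval -0.63 to 0.24). *Fzd1*, *Fzd5* and *Fzd2* had log2 fold changes of -0.05, -0.06 and 0.30. *Fzd10* had a log2 fold change of 0.91 (interval -0.33 to 2.16, limma-trend adjusted p = 0.45). Its signal in the controls spread from 2 in replicate 3 to 20 in replicate 1, around the 13 to 17 of Sirt6mKO, and the neighbouring *Fzd10os* spread in the same libraries (31, 5 and 5 in the controls, 20, 22 and 24 in Sirt6mKO). *Fzd6* and *Fzd9* had signals of 0 to 10 and were not tested.

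Taken per kilobase of exon, *Fzd4* alone made up 62.3, 60.6 and 65.8% of the summed Frizzled signal in the controls and 70.3, 58.6 and 64% in Sirt6mKO. The share of *Fzd8* was 5.21, 6.3 and 5.3% in the controls and 8.83, 12 and 11.9% in Sirt6mKO, without overlap (exact permutation p = 0.1). In the controls *Fzd8* therefore ranked below *Fzd4*, *Fzd7* and *Fzd1* in every library. In Sirt6mKO its share exceeded that of *Fzd1* in every library and that of *Fzd7* in replicate 3, and lay at most 0.37 percentage points below *Fzd7* in the other two. The share of *Fzd3* was 1.55, 2.84 and 2.86% in the controls and 0.986, 1.05 and 1.1% in Sirt6mKO. The summed Frizzled signal per kilobase was 186.2, 154.1 and 180 in the controls and 221.8, 186.3 and 191.2 in Sirt6mKO, where the lowest Sirt6mKO library lay only just above the highest control (exact permutation p = 0.1). Without scaling to exon length the sums were 1115, 943 and 1130 in the controls and 1383, 1120 and 1179 in Sirt6mKO. These groups overlapped (exact permutation p = 0.2).

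**Figure D4:**
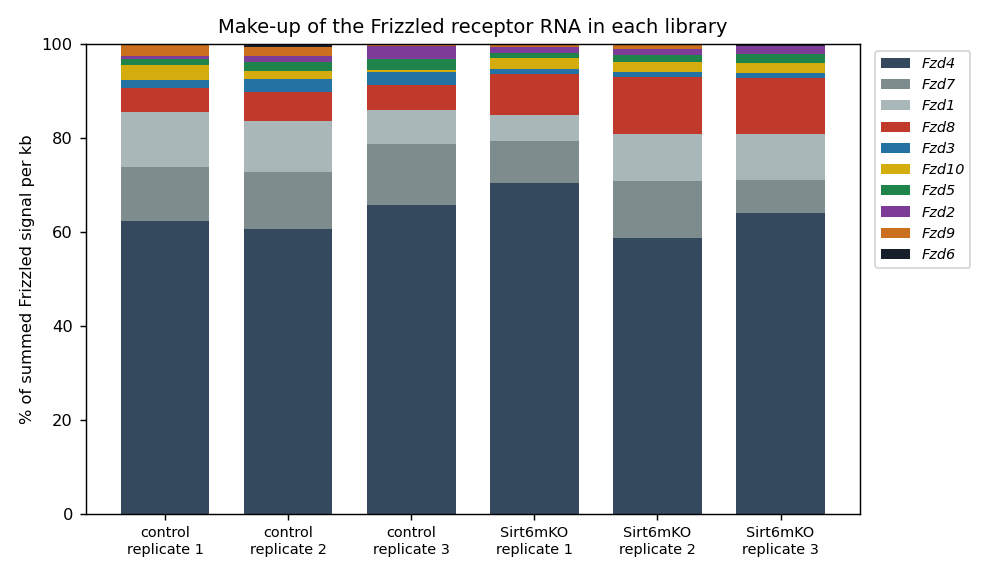
Stacked shares of the 10 Frizzled receptors in the summed Frizzled signal per kilobase of exon (%), for each of the 3 control and 3 Sirt6mKO libraries. *Fzd4* holds 58.6 to 70.3% in every library, and the red segment of *Fzd8* widens from 5.21 to 6.3% in the controls to 8.83 to 12% in Sirt6mKO.

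Among the co-receptors and other receptors, *Ror2* was higher in Sirt6mKO, and its relative *Ror1* did not pass the test. ROR1 and ROR2 are tyrosine kinase-like receptors of the branches that do not use β-catenin. *Ror2* (ENSMUSG00000021464, chromosome 13, 53109312 to 53286124) had a signal of 7, 4 and 2 in the controls and of 14, 16 and 17 in Sirt6mKO, a low level without overlap. The mean of all libraries exceeded the filter of 5 only through the Sirt6mKO group. The means were 4.33 ± 2.52 and 15.7 ± 1.53 (SD, n = 3), the log2 fold change 1.75 (standard error 0.44, interval 0.80 to 2.70, limma-trend adjusted p = 0.041). Behind these values are 12 reads in the controls, of which 1 in control replicate 3, and 56 in Sirt6mKO, a scaled ratio of 3.55 (exact binomial interval 1.88 to 7.29, counting error only). Without the filter the limma-trend adjusted p was 0.082, and with a pseudocount of 0.1 it was 0.056. When each library was left out in turn the log2 fold change stayed between 1.39 and 2.10, and the limma-trend adjusted p was at most 0.05 only without control replicate 1 and otherwise 0.079 to 0.17.

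*Ror1*, in contrast, was at 521, 613 and 464 in the controls and 428, 621 and 561 in Sirt6mKO, a log2 fold change of 0.00 (interval -0.32 to 0.33). Per kilobase, *Ror1* RNA exceeded *Ror2* RNA 54.8-, 113- and 171-fold in the controls and 22.5-, 28.6- and 24.3-fold in Sirt6mKO, so that *Ror1* remained by far the more abundant of the pair (exact permutation p = 0.1 for the ratio). *Ryk*, a further Wnt receptor with an inactive kinase domain, was at 244, 230 and 247 and at 242, 250 and 268, a log2 fold change of 0.08 (interval -0.17 to 0.32).

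The canonical co-receptors did not pass the test. *Lrp6* had a signal of 1766, 1738 and 1730 in the controls and 1736, 1723 and 1681 in Sirt6mKO, which are nearly the same values. Its log2 fold change was -0.03 (interval -0.24 to 0.19), and its coefficient of variation over the 6 libraries was 1.6%. Of the 283 genes with a mean signal of 1000 to 3000, 0 had a lower one, and their median was 11.3%. This feature of *Lrp6* was singled out after its values were seen. *Lrp5* was at 272, 233 and 217 in the controls and 294, 297 and 292 in Sirt6mKO, without overlap, but with a log2 fold change of only 0.30 (interval 0.03 to 0.56, limma-trend adjusted p = 0.21). Per kilobase the ratio of *Lrp6* to *Lrp5* was 4.62, 5.31 and 5.68 in the controls and 4.21, 4.13 and 4.1 in Sirt6mKO (exact permutation p = 0.1). *Lgr4*, a receptor of R-spondins that keeps Frizzled at the cell surface, was at 177, 283 and 292 in the controls and 186, 179 and 184 in Sirt6mKO. The groups overlapped through control replicate 1, and the log2 fold change was -0.42 (interval -0.79 to -0.04, limma-trend adjusted p = 0.22). Without control replicate 1 it was -0.65 with an adjusted p of 0.015. No other of the 6 fits without 1 library passed, and 0 of 11 other settings did. Over the 6 fits the log2 fold change was as small as -0.29 and the limma-trend adjusted p as high as 0.46. *Lgr5*, a related receptor known from intestinal stem cells, had no reads in the controls and 2, 1 and 5 in Sirt6mKO, and lay below the filter. No fold change is given against a group without reads, and with a minimum mean of 1 or without a filter it did not pass either (limma-trend adjusted p = 0.17 and 0.15).

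Of the secreted antagonists, 0 of the 4 with enough signal passed the adjusted p in limma-trend or limma voom. At an unadjusted limma-trend p under 0.05 were 0 of them, against 2577 of all 14227 tested genes. *Sfrp2*, *Sfrp4* and *Sfrp5* encode decoys that bind Wnt outside the cell, and their log2 fold changes were -0.20, -0.20 and 0.26, with intervals reaching from -1.41 at the lowest to 1.24 at the highest. *Dkk2*, which blocks LRP5 and LRP6, was at 14, 2 and 0 in the controls and 4, 6 and 4 in Sirt6mKO, and its log2 fold change of 0.65 had an interval of -1.12 to 2.42. The intervals of all 4 reach beyond a 2-fold change in at least 1 direction, so that changes of that size were not excluded at these levels. *Sfrp1*, *Frzb*, *Wif1* and *Dkk3* had signals of 0 to 9 and were not tested.

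*Dkk3*, a divergent Dickkopf protein that does not act as a typical LRP inhibitor, was 1 of the 2 untested members without overlap, the other being *Lgr5*. Its signal was 1, 1 and 0 in the controls and 9, 9 and 4 in Sirt6mKO. Only 2 reads in the controls against 27 in Sirt6mKO lie behind these values, a scaled ratio of 10.3 (exact binomial interval 2.58 to 89.2, counting error only).

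Of the 3 cytoplasmic transducers and 3 nuclear factors, 0 passed the adjusted p in limma-trend or limma voom. At an unadjusted limma-trend p under 0.05 were 0 of them, against 2577 of all 14227 tested genes. *Ctnnb1* had a signal of 976, 1306 and 1024 in the controls and 1014, 924 and 1050 in Sirt6mKO (log2 fold change -0.14, interval -0.41 to 0.14), and shares 759 exonic nucleotides with *Ulk4* on the other strand. Whether reads were counted by strand is not stated, so reads of the 2 genes may not be told apart there. *Axin1*, the scaffold of the destruction complex, had a log2 fold change of 0.07 (interval -0.21 to 0.36). *Axin2*, at once a scaffold and a target of β-catenin, was at 47, 32 and 41 in the controls and 31, 54 and 27 in Sirt6mKO, groups that overlap fully. Its log2 fold change was -0.14 with an interval of -0.74 to 0.45 (limma-trend adjusted p = 0.85), so that a 2-fold change lies outside the interval. The nuclear partners of β-catenin gave log2 fold changes of 0.10 for *Tcf7*, 0.10 for *Tcf7l1* and -0.11 for *Tcf7l2*, all with overlapping groups.

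Beyond the members, 86 other genes of the pathway were listed by function, of which 81 were in the table and 67 were tested. At the adjusted p alone 3 of the 67 were higher and 4 lower in Sirt6mKO, where 2.64% and 1.88% of all tested genes were, with 32 of the 67 log2 fold changes above 0 and a median of -0.002. Of the 13 tested planar polarity genes 3 were lower and 0 higher, and the median log2 fold change of the 13 was 0.05. *Celsr2*, an atypical cadherin of the polarity complex, had a signal of 82, 63 and 70 in the controls and 22, 27 and 28 in Sirt6mKO (log2 fold change -1.45, limma-trend adjusted p = 0.0019). *Vangl1*, its membrane partner, was at 49, 42 and 63 and at 25, 24 and 17 (-1.19, adjusted p = 0.018). When each library was left out in turn, *Celsr2* passed in all 6 fits (limma-trend adjusted p at most 0.02), and *Vangl1* in 2, with an adjusted p of 0.063 at the highest. *Fuz*, a planar polarity effector needed for cilia, was at 122, 140 and 106 and at 77, 81 and 66 (-0.70, adjusted p = 0.027), and passed without control replicate 3 alone. The 10 other planar polarity genes did not pass the adjusted p. Among them, the paralogue *Vangl2* was at 75, 64 and 82 in the controls and 77, 76 and 62 in Sirt6mKO. *Prickle1* and *Celsr3* were higher in Sirt6mKO without overlap, at log2 fold changes of 0.88 and 0.66 (limma-trend adjusted p = 0.078 and 0.4).

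Of the surface modulators 1 of 7 passed. *Gpc3*, a heparan sulphate proteoglycan that binds Wnt and Hedgehog, had a signal of 31, 15 and 5 in the controls and 60, 73 and 73 in Sirt6mKO (log2 fold change 2.25, limma-trend adjusted p = 0.014), and did not pass when any 1 of the Sirt6mKO libraries was left out (log2 fold change 1.62 to 2.82 without 1 library, adjusted p up to 0.091) or with robust empirical Bayes (0.053). In the sets for Wnt secretion (5 tested), the destruction complex with its transducers (18 tested) and nuclear cofactors (15 tested), 0 genes passed the limma-trend adjusted p and 0 passed in limma voom. At an unadjusted limma-trend p under 0.05 were 1, 3 and 2 of them, against 2577 of all 14227 tested genes. The median log2 fold changes were -0.002, -0.04 and -0.01. Of the 12 tested genes commonly cited as β-catenin targets, *Jun* and *Cd44* were higher and *Ccnd1*, which encodes cyclin D1, was lower. *Jun* had a signal of 2358, 2943 and 2481 in the controls and 4090, 4300 and 5182 in Sirt6mKO, and *Ccnd1* of 830, 860 and 749 and of 383, 351 and 687. Both genes also answer to many other signals. *Jun* passed without each library in turn (limma-trend adjusted p at most 0.026), whereas *Ccnd1* passed only without Sirt6mKO replicate 3 and *Cd44* only without control replicate 1. Without a filter the adjusted p was 0.066 for *Ccnd1* and 0.065 for *Cd44*, and with robust empirical Bayes it was 0.085 for *Ccnd1*. The remaining 9 targets, *Axin2* not counted, did not pass.

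**Figure D5:**
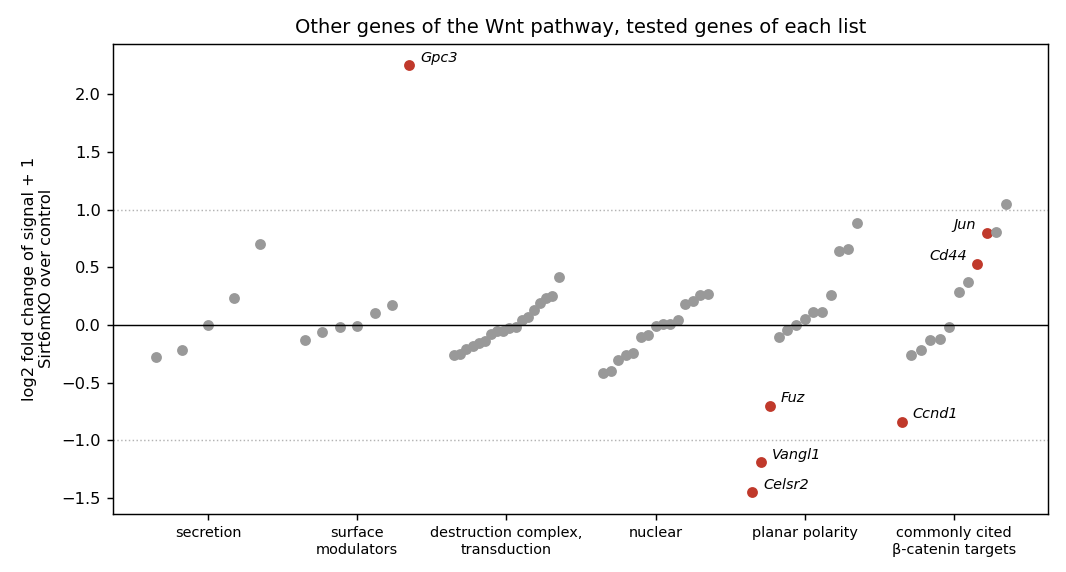
Log2 fold change of signal plus 1 in Sirt6mKO over control for the tested genes of 6 lists of other Wnt pathway genes, 1 point per gene; red points passed an adjusted p of 0.05 in limma-trend and dotted lines mark a 2-fold change. *Celsr2*, *Vangl1* and *Fuz* are the lowest of the planar polarity genes, and *Gpc3* stands alone among the surface modulators.

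Markers of other cells differed between the groups as well. MuSC markers were abundant in every library (summed signal of 12 markers 17963 to 19736 in the controls and 17067 to 17747 in Sirt6mKO). Of the 12, *Pax7* and *Chrdl2* were lower and *Des* and *Cd34*, a marker of the sort, were higher at the limma-trend adjusted p. The other 8 did not pass, among them *Myf5* and *Cdh15* at log2 fold changes of -0.03 and 0.04, and the median of the list was -0.11. Of 10 tested fibroblast markers 5 were higher in Sirt6mKO, with a median of 1.66 on the log2 scale and a summed signal over the list of 12 of 12941 to 14856 against 8880 to 13395. *Pdgfra* rose from 9, 4 and 2 to 14, 22 and 38, and *Clec3b*, listed at 1, 0 and 0 in the controls, was at 109, 22 and 78, whereas *Ly6a*, which encodes the Sca1 used to sort such cells away, was at 0 in 4 libraries and at 2 in the others. Of 12 myofiber markers 5 were higher (median 1.23, sums 1965 to 3749 against 1390 to 1482). Of 8 tenocyte markers 0 passed the limma-trend adjusted p and 5 were at an unadjusted p under 0.05 (median 2.22), with sums of 69 in Sirt6mKO replicate 1 and up to 1199 in the other Sirt6mKO libraries against 58 to 85. *Clec3b*, *Tnmd*, *Kera* and *Comp* exceeded the filter of 5 only through the Sirt6mKO group, which raises the medians of the fibroblast and tenocyte lists. *Clec3b* is also among the 5 fibroblast markers counted as higher. Of the 7 tested mural, 5 Schwann, 3 endothelial and 1 immune cell markers, 0 passed in limma-trend and 2, 1, 1 and 0 were at an unadjusted p under 0.05, with 1 mural marker past the adjusted p in limma voom. Over all 14227 tested genes, 2577 were at an unadjusted limma-trend p under 0.05. *Fzd8*, *Ror2*, *Dkk3*, *Lgr5* and *Gpc3* moved in the same direction as the medians of the fibroblast and myofiber markers. The part of other cells in their differences, and in that of *Wnt4*, was not tested.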

How the data were processed

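The authors depleted ribosomal RNA from sorted MuSCs and sequenced single-end reads of 75 nucleotides. The labels name a SMARTer stranded kit after RiboGone depletion, whereas the methods name RiboMinus and an Ion Total RNA-Seq kit. According to the submitters' processing notes and the methods, reads were trimmed, aligned to mm10 (GRCm38) with STAR, assigned to genes with featureCounts and analysed with DESeq2. No unit is given for the deposited table. Its values are a signal, namely reads divided by 1 size factor per library and rounded by the authors, as shown by gaps in the occupied values of control replicates 1 and 3 (11 and 27 of the whole numbers from 1 to 60). Size factors between 0.558 and 1.372 were recovered from these values without using the groups, and reads were rebuilt from them.

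Since the values are not counts, log2(signal + 1) was fitted for 14227 genes (mean signal 5 or more) with limma-trend (limma 3.58.1, R 4.3.3) and adjusted by Benjamini-Hochberg. Thresholds were an adjusted p of 0.05 and a fold change of 2. The fold changes are on the log2(signal + 1) scale, which understates changes of low genes. Signal per kilobase used the merged exons of GENCODE M21, in which all 41 members were found, 40 with the bounds of the deposited table. The procedure was tested on simulated data. Tables were handled with Python 3.11.15, pandas 2.3.3 and scipy 1.17.1.

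All tested members are named, and values in every library are given for those past the adjusted p, those with groups that do not overlap, *Fzd4*, *Lrp6* and *Axin2*, and further members where a comparison turns on them. The members, gene lists and rules were chosen with earlier results of these data known. Alternatives changed the scaling, pseudocount, filter, test, replicate block and libraries used.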

Additional observations from a re-analysis of the deposited data

How the results depend on the processing

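*Fzd8* was called in every alternative. The number of higher members was 1 with a pseudocount of 0.1, without a filter and with a mean signal of at least 50, where *Ror2* was lost or not tested, 3 with a mean of at least 1, which adds *Dkk3* (above 1 only through the Sirt6mKO group), and 1 to 2 when a library was left out. The number of lower members was 0 with a mean of at least 50, where *Wnt4* was not tested, and 0 to 2 when a library was left out. Over all genes, leaving out a library gave 88 to 294 higher and 81 to 151 lower genes, against 223 and 145, and a mean of at least 50 gave 76 and 52. *Fzd3* passed the adjusted p with library size scaling (0.049), voom (0.050), robust empirical Bayes (0.045) and the replicate block (0.049). Without a filter its limma-trend adjusted p was 0.083.

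The log2 fold change of *Ror1* was -0.01 with library size scaling and -0.01 with voom. Without 1 library, uncalled members ranged from -0.35 to 0.03 for *Fzd7*, -0.26 to 0.73 for *Dkk2*, -0.04 to 0.79 for *Fzd2*, -0.27 to 0.00088 for *Tcf7l2*, -0.02 to 0.66 for *Sfrp5*, -0.003 to 0.17 for *Axin1*, -0.44 to 0.05 for *Axin2*, -0.62 to 0.44 for *Sfrp2*, -0.10 to 0.41 for *Tcf7l1*, -0.07 to 0.43 for *Tcf7*, -0.23 to 0.16 for *Fzd1*, -0.25 to 0.16 for *Fzd5* and -0.11 to 0.16 for *Ror1*. Of 442 alternative fits of single members, 400 kept direction and side of the threshold.

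Libraries with the same replicate number correlated in their deviations at 0.023, 0.066 and 0.188, and those with different numbers at -0.129 to 0.073. The labels do not say that the numbers pair animals, so the main fit did not take them as pairs. With the replicate block 2 members were higher and 1 lower, and 268 and 167 genes in all. Depth limits the members with few reads, above all in control replicate 3.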
